A study of Homo sapiens with 4 samples.

Results

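The early transcriptional response of myeloma cells to MLN4924 was read from 2 of the 4 arrays of the series, those of cells exposed to the inhibitor for 8 h and of control cells, and the members were chosen by array title alone. The cells were MM.1S, an established line from a human multiple myeloma, grown in culture with 250 nM MLN4924 for 8, 16 or 24 h or with the vehicle DMSO, and the label of the control array gave no time in culture. The 16 h and 24 h arrays are used below to set the 8 h values in time. All 12446 genes measured on the arrays enter the 8 h comparison, each read by the probe set with the highest mean level among those assigned to that gene only.

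MLN4924 blocks NAE, the enzyme made of NAE1 and UBA3 that activates NEDD8, a small protein that must be joined to cullins before the cullin-RING ubiquitin ligases can work. Among the proteins these ligases mark for destruction are NRF2, the factor that turns on antioxidant genes and is recognised through KEAP1 and CUL3, and the IκB proteins that hold NF-κB in the cytoplasm. Myeloma cells secrete large amounts of immunoglobulin and depend on protein disposal, on NF-κB signalling and on plasma cell factors such as IRF4.

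Few genes stood apart at 8 h, and the genes furthest above control were mainly antioxidant ones. Genes for thioredoxin and glutathione recycling, cystine uptake, NADPH supply, aldo-keto reduction and iron handling stood up to 4.57-fold above control. The genes furthest below control included a GTPase of lymphocytes (GIMAP8), the transcriptional regulators HES1 and KLF2, a substrate of protein kinase C (MARCKS), a sodium channel subunit (SCNN1G) and a linker histone (H1-10). Part of this early set was back near the control level on the later arrays, more often among the lower than among the higher genes. The share among the higher genes depended on the rule by which genes counted as measured, as given below.

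There was 1 array a group and therefore no test, so each difference below is that of 1 array from another, and "higher" and "lower" name only its direction and size. Values are deposited intensities on a linear scale, and differences are log2 of the 8 h value minus log2 of the control value. Over 5719 genes read by a second measured probe set, the pooled SD between the probe sets of a gene was 0.16 on the log2 scale for the 8 h difference. That value covers neither the spread between cultures nor that between hybridisations. The 4 arrays had medians of 92.2 to 95.4, and the 3′ to 5′ signal ratio of GAPDH was 1.18 at 8 h and 1.19 in control cells. The ratio of ACTB was 1.95 at 8 h and 2.21 in control cells, a difference in the measure of RNA integrity whose part in the results was not tested. All 10 of the plasma cell markers were measured, with a summed intensity of 66025 at 8 h and 73294 in control cells, and 9 of the 10 lay below the control level. The summed marker levels of other cell types were low and near each other, at 750.0 (8 h) and 741.0 (control) for T and NK cells, 732.0 and 698.0 for myeloid cells, 876.0 and 854.0 for fibroblasts and 1391 and 1438 for erythroid cells. HBB, a globin gene, made up most of the erythroid sum, with an intensity of 1043 at 8 h and 1080 in control cells. In a bulk culture fewer cells expressing a gene and less RNA per cell cannot be told apart.

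At 8 h, 16 of 12446 genes (0.129%) were at least 2-fold higher than in control cells, and on the lower side 15 genes (0.121%) passed the same limit. With a limit of 1.5-fold, a log2 difference of 0.585, the counts were 91 higher genes (0.731%) and 140 lower genes (1.12%). These 231 genes are called early below. The later arrays differed more from the control array: 2-fold or more, 48 genes (0.386%) were higher and 36 (0.289%) lower at 16 h, and 64 (0.514%) were higher and 24 (0.193%) lower at 24 h. At 1.5-fold, 279 genes (2.24%) were higher and 340 (2.73%) lower at 16 h, and 355 (2.85%) were higher and 287 (2.31%) lower at 24 h. The limits cut through a continuous range. COL24A1 (1.04) was the last gene inside the 2-fold limit and TKT (0.999) the first outside it among higher genes, with MAP3K5 (-1.01) and GLIDR (-0.98) in the same places among lower genes. At 1.5-fold the neighbours were CPED1 (0.59) and MOB1B (0.58) on the higher side, and HIVEP1 (-0.59) and LINC01234 (-0.58) on the lower side.

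**Figure D1:**
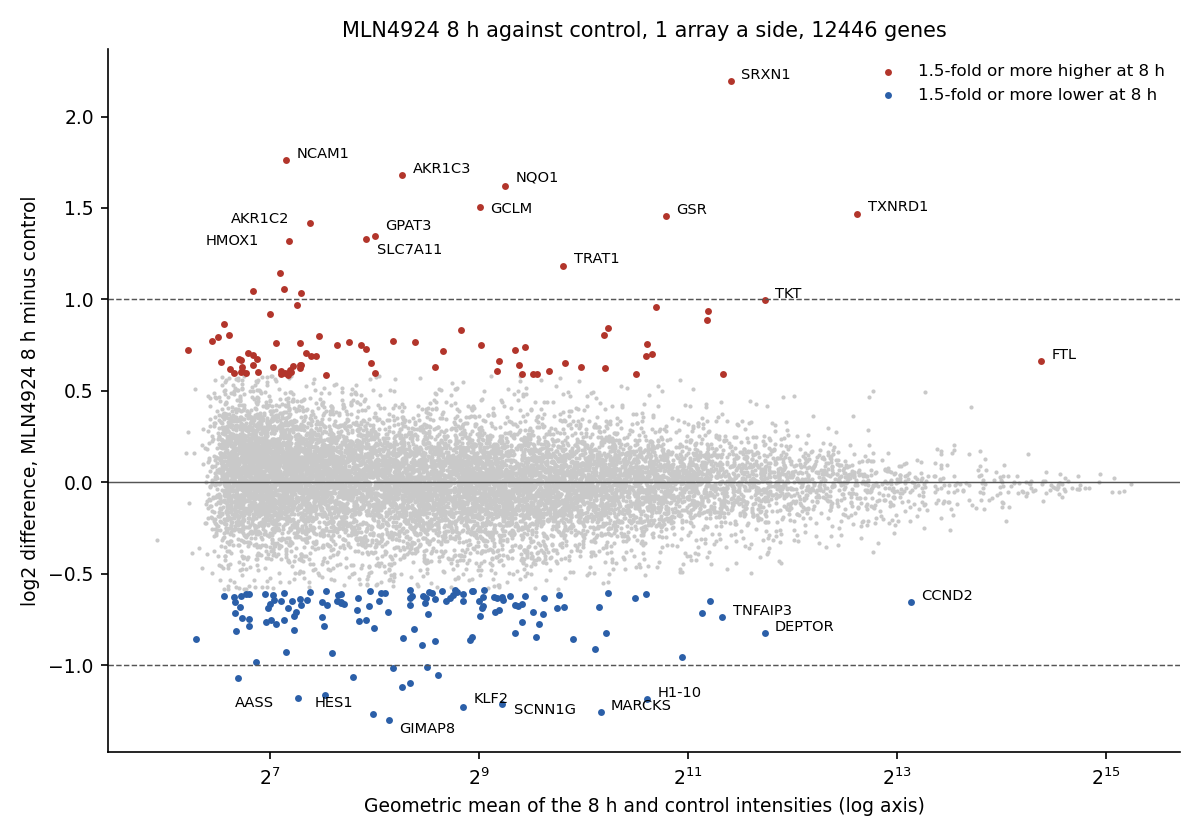
Each point is 1 of 12446 genes, with the geometric mean of its 8 h and control intensities on the x axis (log scale) and the log2 difference of 8 h minus control on the y axis. Dashed lines mark 2-fold, and coloured points are the 91 higher (red) and 140 lower (blue) genes past 1.5-fold. SRXN1 stands highest at 2.19 and GIMAP8 lowest at -1.30, and the bright genes TXNRD1, FTL and CCND2 lie outside the grey band of their neighbours.

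Of the gene lists, NRF2 targets had the largest median difference at 8 h. Of 40 listed genes 34 were measured, 29 of them lay above the control level at 8 h, 14 were at least 1.5-fold higher and none was 1.5-fold lower. Their median log2 difference was 0.43, against 0.01 over all measured genes, of which 51.7% lay above control. The list was put together with earlier results of these arrays known, so its direction is a description and not separate evidence. Of the 16 genes past 2-fold, 9 were on the list.

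In the thioredoxin and quinone branch, SRXN1, which restores overoxidised peroxiredoxins, had intensities of 1276 in control cells and of 5834, 4388 and 3737 after 8, 16 and 24 h. It was 4.57-fold higher at 8 h, more than any other measured gene, and the 8 h array held its top value. TXNRD1, the cytosolic thioredoxin reductase, read 3792 in control cells and 10501, 8036 and 7809 after 8, 16 and 24 h, and was 2.77-fold higher at 8 h. Its 8 h log2 difference was 1.47, and 0.73 with the median over all its probe sets, of which no other was bright enough to count as measured. NQO1, a quinone reductase, read 347.9 in control cells and 1069, 1275 and 1136 at the same times, 3.07-fold higher at 8 h. Its second probe set gave a log2 difference of 2.05. The abundant partners of these enzymes moved little: TXN, the thioredoxin itself, had 12857 at 8 h and 11174 in control cells, PRDX1 had 11389 and 10026, and PRDX6 had 3902 and 3988.

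In the glutathione branch, GCLM, the modifier subunit of the ligase that limits glutathione synthesis, read 305.4 in control cells and 867.4, 486.7 and 405.3 after 8, 16 and 24 h. It was 2.84-fold higher at 8 h and its second probe set gave a log2 difference of 1.46. GCLC, the catalytic subunit of the same ligase, had 766.4 at 8 h and 547.9 in control cells, a log2 difference of 0.48 that missed 1.5-fold. GSR, which regenerates reduced glutathione, read 1070 in control cells and 2937, 1998 and 1957 after 8, 16 and 24 h, 2.74-fold higher at 8 h. SLC7A11, the cystine importer, read 152.9 in control cells and 384.4, 165.5 and 216.7 at the same times. It was 2.51-fold higher at 8 h and by 16 h stood only 0.11 above control on the log2 scale, and its second probe set gave 1.39 at 8 h and -0.04 at 16 h. The transporters ABCC3 (0.22) and ABCC4 (0.35), the peroxidase GPX2 (0.13) and MGST1 (-0.07), a transferase of membranes, did not pass 1.5-fold.

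All 4 measured genes of NADPH supply lay above control. TKT, a transketolase of the pentose phosphate pathway, had 4826 at 8 h and 2415 in control cells, just under 2-fold (0.999), but the value was 0.36 without probe sets of the kinds that can bind several transcripts. ME1, the cytosolic malic enzyme, had 1968 at 8 h and 1219 in control cells (1.61-fold higher). TALDO1 (0.47) and PGD (0.39), both of the pentose phosphate pathway, were above control by less than 1.5-fold. PGD was below it at 16 h (-0.15) and 24 h (-0.12).

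The aldo-keto reductases had another time course. AKR1C3 read 172.0 in control cells and 550.5, 1056 and 1061 after 8, 16 and 24 h, and AKR1C2 read 102.2 in control cells and 272.9, 476.6 and 530.4. They were 3.20-fold and 2.67-fold higher at 8 h and lay further above control afterwards, as did AKR1C1, whose log2 difference was 0.77 at 8 h and 1.46 at 16 h. AKR1C1 and AKR1C2 were read by probe sets of a class that can also bind related transcripts, so their signals cannot be told apart with certainty. Of the other reductases, CBR1 (0.39) and CBR3 (-0.21) did not pass 1.5-fold.

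HMOX1, the inducible heme oxygenase, differed at 8 h only. It read 92.2 in control cells and 230.1, 97.3 and 77.6 after 8, 16 and 24 h, so only the 8 h array stood above the rest, 2.50-fold over control. Its control value lies at the median of the control array, 92.2, so the base of this fold is dim. FTL, the ferritin light chain, was among the brightest genes, with 26932 at 8 h and 16981 in control cells, and stayed at 28249 and 26919 at 16 and 24 h. SLC40A1, the iron exporter ferroportin, had 162.1 at 8 h and 113.7 in control cells (0.51). PIR, an iron-binding nuclear protein, had 437.7 at 8 h and 257.2 in control cells (0.77).

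The genes for the regulators themselves differed less than the targets. NFE2L2, which encodes NRF2, had 2056 at 8 h and 2131 in control cells, a log2 difference of -0.05. KEAP1, the adaptor that presents NRF2 to its ligase, had 1873 at 8 h and 1346 in control cells (0.48), and BACH1, a repressor of the same elements, had 1223 and 989 (0.31). MAFG, a small Maf partner of NRF2, had 1464 at 8 h and 949.2 in control cells and was the only regulator past 1.5-fold (0.63). Its second probe set gave 0.40 at 8 h, under 1.5-fold. MAFF, another small Maf, lay at 0.04 at 8 h, and at 0.78 and 0.77 at 16 and 24 h.

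**Figure D2:**
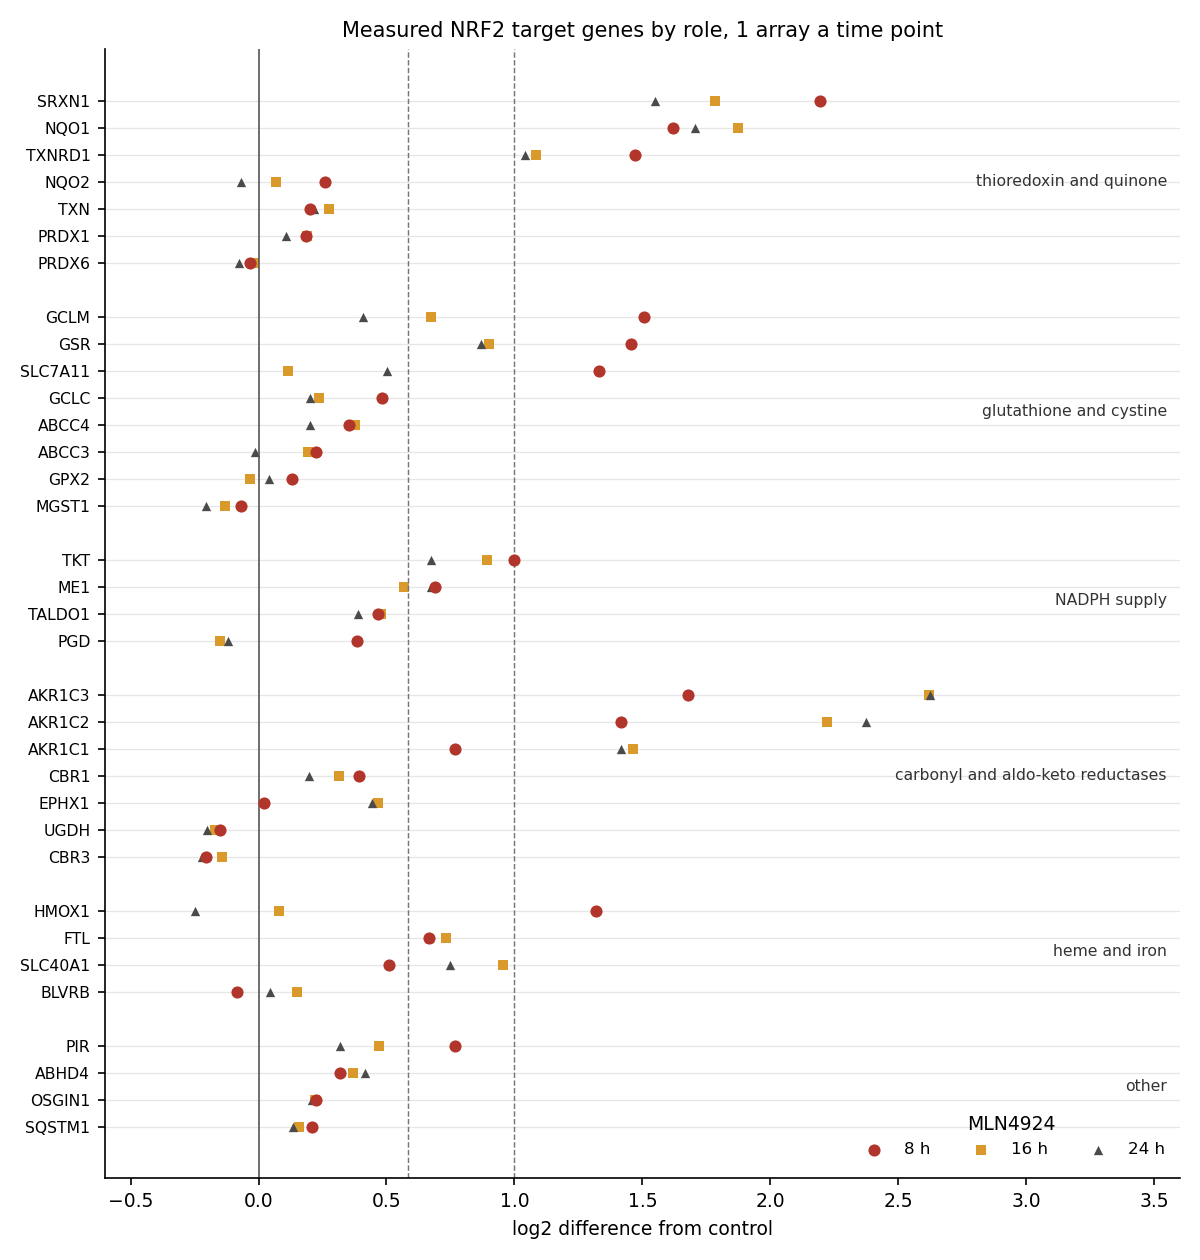
The 34 measured NRF2 targets run down the page in groups by role, with the log2 difference from control at 8 h (red circles), 16 h (squares) and 24 h (triangles), 1 array each, and dashed lines at 1.5-fold and 2-fold. In 17 of the 34 genes the 8 h value is the largest of the 3 times in size, against 3486 of all 12446 measured genes. GCLM, SLC7A11 and HMOX1 drop back towards 0 after 8 h, while the 3 AKR1C genes move further out.

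NRF2 acts through the antioxidant response element, whose core was searched as TGACNNNGC on both strands of the promoter window, 250 bases before to 50 after the gene start, in RefSeq sequences of GRCh38.p14. A match was found in 8 of the 27 measured NRF2 targets with a promoter in the table (29.6%), in 14 of 67 early higher genes (20.9%), in 24 of 113 early lower genes (21.2%), in 15.3% of 9977 measured genes and in 13.3% of 34796 promoters. The share was thus as large among early lower as among early higher genes. Sequences are shown for 3 of the higher targets, 5′ to 3′ on the strand of the gene, with the element in capitals. TXNRD1 carries it 99 bases before its start (chr12:104215655-104215713, plus strand), GCLM 34 bases before its start and on the opposite strand (chr1:93909431-93909489, minus strand), and ME1 137 bases before its start (chr6:83431155-83431213, minus strand). TXNRD1 has a further match 8 bases before its start and ME1 another 12 bases after it, neither printed. SRXN1 and NQO1 had no match in this window.
TXNRD1: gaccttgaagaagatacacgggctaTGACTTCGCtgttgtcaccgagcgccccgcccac
GCLM: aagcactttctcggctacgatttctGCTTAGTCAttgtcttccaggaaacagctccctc
ME1: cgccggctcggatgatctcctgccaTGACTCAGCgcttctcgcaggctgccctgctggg

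Outside the antioxidant set, the higher genes included surface and signalling molecules. NCAM1, the adhesion molecule CD56 that many myelomas carry, read 77.4 in control cells and 262.3, 612.1 and 832.2 after 8, 16 and 24 h. It was 3.39-fold higher at 8 h and continued upward, and its second probe set gave 1.60, 2.73 and 3.09 at the 3 times, while the median over all its probe sets was 0.98 at 8 h. Its control value was under the median of that array, as were those of 4 of the 16 genes past 2-fold. TRAT1, an adaptor first described with the T cell receptor, read 594.4 in control cells and 1352, 1357 and 1628 after 8, 16 and 24 h. GPAT3, an acyltransferase of glycerolipid synthesis, read 160.9 in control cells and 409.4, 301.3 and 258.2.

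FBLL1, a relative of fibrillarin (2.21-fold, or a log2 difference of 0.58 with the median over all its probe sets), ODF4, a gene of the sperm tail (2.08-fold), the pseudogene EGFEM1P (2.07-fold) and COL24A1, a collagen chain (2.05-fold), complete the genes past 2-fold. All 4 had control intensities of 79.9 to 109.8, close to the array median. Just under that limit stood GLA, the lysosomal alpha-galactosidase, with 2314 at 8 h and 1193 in control cells, and TMEM255A, a membrane protein, with 3238 and 1689. P2RY10, a receptor of lymphocytes, had 1617 at 8 h and 901.7 in control cells (0.84). EPAS1, which encodes HIF-2α, a factor degraded through a cullin-2 ligase, had 607.2 at 8 h and 340.6 in control cells (0.83), while the gene of its relative HIF1A lay at -0.44. CXCR3, a chemokine receptor (0.61), FZD7, a Wnt receptor (0.69), and SESN3, a stress-induced brake on mTOR signalling (0.63), were early and larger at both later times. The second probe set of FZD7 gave 0.39 at 8 h, under 1.5-fold.

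A pair of histone chaperones that work together outside DNA replication was higher at 8 h. ASF1A read 1201 in control cells and 2030, 1440 and 1351 after 8, 16 and 24 h, and HIRA read 537.8 in control cells and 897.1, 613.4 and 611.0. In both, the 8 h array stood highest and the later ones were within 0.30 of control on the log2 scale. The second probe set of ASF1A gave 0.67 at 8 h. HIRA lay at 0.74 at 8 h, and at 0.37, under 1.5-fold, with the median over all its probe sets. H1-10, a linker histone made throughout the cell cycle, went the other way, with 2350 in control cells and 1035, 1523 and 1462 after 8, 16 and 24 h (2.27-fold lower at 8 h). The 7 measured replication-dependent histone genes had a median of -0.22, and 6 lay below control.

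Regulators of transcription were among the lower genes. HES1, the repressor at the end of the Notch pathway, read 392.4 in control cells and 163.4, 189.6 and 161.8 after 8, 16 and 24 h. It was 2.40-fold lower at 8 h, and its second probe set gave -1.76. KLF2, which keeps lymphocytes quiescent, read 706.1 in control cells and 301.4, 285.5 and 269.4 at the same times, 2.34-fold lower at 8 h (-1.23, and -0.75 with the median over all its probe sets). ID3, an inhibitor of E proteins, had 260.6 at 8 h and 403.2 in control cells (-0.63), with ID2 at -0.53 and ID1 at -0.43. The E protein gene TCF4 was lower too (-0.71), with 1762 at 8 h and 2890 in control cells, and its second probe set gave -0.67. The Notch receptor genes did not pass 1.5-fold, NOTCH1 lying at -0.03 and NOTCH2 at -0.38, and the ligand gene JAG1 lay at 0.58, just under 1.5-fold higher, and at -0.0021 with the median over its probe sets. Over all 17 measured genes of the Notch, HES and ID list the median was -0.03, with 9 below control.

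GIMAP8, of a family of GTPases in lymphocytes, read 442.3 in control cells and 179.5, 361.9 and 471.4 after 8, 16 and 24 h, 2.46-fold lower at 8 h and back at the control level by 24 h. With the median over its probe sets its 8 h difference was -0.67 in place of -1.30. Its neighbours in the family GIMAP5 (-0.07) and GIMAP2 (0.03) lay at the control level. MARCKS, a substrate of protein kinase C at the membrane, read 1773 in control cells and 743.1, 1191 and 1179, 2.39-fold lower at 8 h, and its second probe set gave -1.497. SCNN1G, a sodium channel subunit (-1.21), NMI, a partner of MYC and STAT proteins (-1.10), and MAP3K5, the stress kinase ASK1 (-1.01), were also past 2-fold. With the median over their probe sets SCNN1G (-0.50) and TRPM8 (-0.54) fell short of 1.5-fold. The others past 2-fold were AASS, of lysine breakdown (-1.18), the long noncoding LOC100996740 (-1.16), the cation channel TRPM8 (-1.12), the adaptor subunit AP4S1 (-1.07), RAB11FIP1, of endosome recycling (-1.06), PHACTR1, an actin regulator (-1.05), and the transcription factor GRHL3 (-1.01). The second probe sets of AASS (-0.28) and RAB11FIP1 (-0.25) gave the same direction but not 1.5-fold, and RAB11FIP1 lay at -0.51 with the median.

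Genes of the plasma cell program lay below control by small amounts. Of 28 measured genes of the plasma cell and myeloma list 22 were below control at 8 h, with a median of -0.12. IRF4 had 3830 at 8 h and 4678 in control cells (-0.29), XBP1 had 8787 and 9978, and MZB1, a chaperone of immunoglobulin, had 6454 and 8119 (-0.33). PRDM1, the plasma cell factor BLIMP-1, went the other way, with 4983 at 8 h and 4163 in control cells (0.26, and 0.075 with the median over its probe sets). CCND2, the cyclin D expressed by these cells, read 11264 in control cells and 7149, 7098 and 7040 after 8, 16 and 24 h, 1.58-fold lower at 8 h with no further step. Its second probe set gave -0.83, -0.80 and -0.79.

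The secretory machinery that this program drives was lower in the same small way. Of 38 measured genes of ER folding and transport 29 lay below control at 8 h (median -0.16), including 10 of 11 ER chaperones with a median of -0.25. SEC24D, of the coat that carries cargo out of the ER, was the only one past 1.5-fold, with 705.8 at 8 h and 1082 in control cells (-0.62). BHLHA15, which encodes the secretory cell factor MIST1, read 997.5 in control cells and 582.4, 667.1 and 903.5 after 8, 16 and 24 h. ELL2, the elongation factor that favours secreted over membrane immunoglobulin, read 865.1 in control cells and 489.4, 625.4 and 653.2, and its second probe set gave -0.72 at 8 h. BHLHA15 and ELL2 were on no list and were picked from the early lower genes. Both had their lowest value at 8 h, which that choice in part builds in. ACTB ratios and the summed plasma cell markers moved at the same time, as given above, and their part in these small shifts was not tested.

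NF-κB induces its own brakes, and several of those genes were lower at 8 h. TNFAIP3, the ubiquitin editor A20, read 3327 in control cells and 1996, 2550 and 2588 after 8, 16 and 24 h, 1.67-fold lower at 8 h, and its second probe set gave -0.67. NFKBIA, which encodes IκBα, had 471.4 at 8 h and 656.9 in control cells (-0.48), and NFKBIE, another IκB, had 210.1 and 289.7 (-0.46). The NFKBIA value depended on the probe set, at -0.25 with the median over its probe sets and -0.03 without those that can bind several transcripts. Of the 5 measured feedback genes 4 lay below control (median -0.46), as did 3 of 4 subunit genes (median -0.31), with RELB at -0.54 and NFKB2 at -0.36. The survival gene CFLAR, an inhibitor of caspase-8, was at -0.55 and BCL2L1 at -0.35, but CFLAR lay at 0.0039 with the median over its probe sets and at -0.11 without those that can bind several transcripts. The cytokine and surface genes of the list did not follow, with 5 of 7 above control and a median of 0.03, so the whole list of 19 measured genes had a median of -0.03. Only TNFAIP3 and CCL4, a chemokine gene, passed 1.5-fold. IKBKE, a kinase of the pathway that was on no list, lay at -0.76.

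A match to the NF-κB consensus was found in 6 of 15 NF-κB targets with a promoter in the table (40.0%), in 10 of 113 early lower genes (8.8%), in 3 of 67 early higher genes (4.5%), in 6.6% of measured genes and in 5.9% of all promoters. Short stretches are shown for the brake genes TNFAIP3 and NFKBIA, with the match in capitals, in the same orientation and build as above. Distances are to the start site that the promoter window was drawn around. The match shown in TNFAIP3 (chr6:137867182-137867211, plus strand) begins 67 bases before that site, which itself lies inside the annotated span of the gene. A further match in TNFAIP3, 55 bases before the site, is not marked. In both genes the matches lie on the strand opposite to the gene. The match in NFKBIA (chr14:35404811-35404840, minus strand) begins 81 bases before the site and lies outside the gene.
TNFAIP3: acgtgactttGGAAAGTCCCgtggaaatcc
NFKBIA: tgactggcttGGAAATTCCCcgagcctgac

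The early genes were then followed to the later arrays. The comparisons at 8, 16 and 24 h share the same control array, and a gene picked for a large 8 h value tends to lie nearer 0 on other arrays whatever the treatment does, so the counts that follow are descriptions. A gene was taken as no longer different when its log2 difference was under 0.5 in size at both later times, and as still different when it kept its direction at 1.5-fold or more at both. Of the 91 higher genes, 26 (28.6%) were no longer different and 42 (46.2%) were still higher. Of the 140 lower genes, 78 (55.7%) were no longer different and 24 (17.1%) were still lower. Another 22 higher and 36 lower genes fell between these limits, and 3 crossed to the other side. Genes counted as measured by their mean level over all arrays. A gene dim in control cells thus passed more easily if it stayed high later, which favours still higher over returned genes. In control cells 21 of the 91 higher genes lay under the array median, against 0 of the 140 lower genes. With no filter on level, 65 of 152 higher genes no longer differed. How much of the difference between the directions comes from the filter was not tested.

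The still higher genes had medians of 0.80, 1.05 and 1.06 at 8, 16 and 24 h, and the lower genes that returned had medians of -0.67, -0.26 and -0.08. The 8 h value was the largest in size of the 3 times in 47 of the 91 higher genes and in 112 of the 140 lower genes. Over all measured genes this held for 3486 of 12446, but the early genes were picked for a large 8 h value. Among genes past 2-fold, 12 of the 16 higher and 7 of the 15 lower ones were still different, and 2 higher and 4 lower ones were no longer different.

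**Figure D3:**
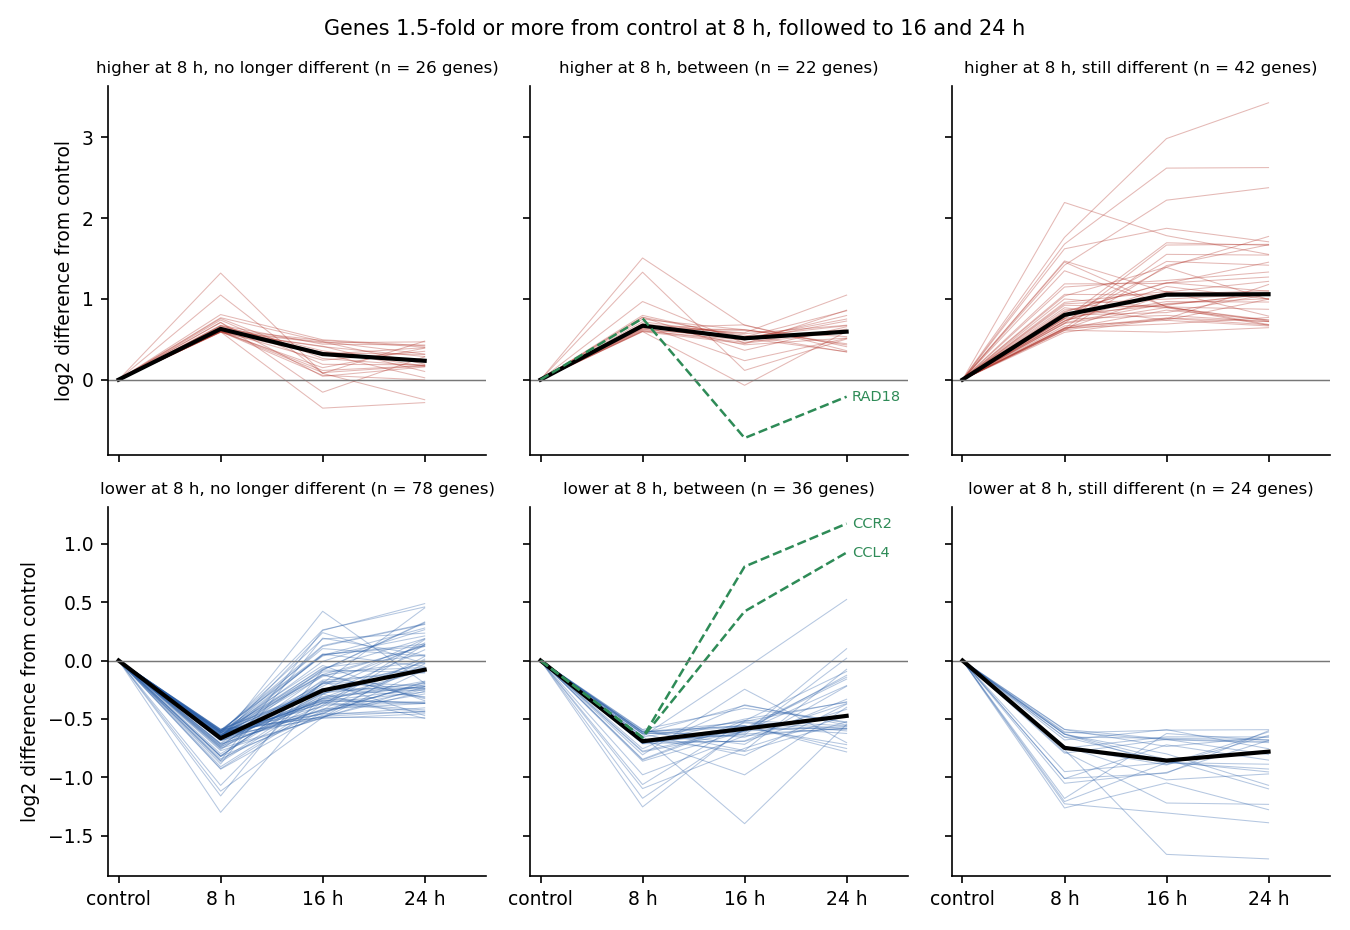
Log2 difference from control at control, 8, 16 and 24 h for the early genes, 1 thin line a gene, higher genes above in red and lower genes below in blue, split by their later course, with the median of each panel in black. The median of the 42 still higher genes climbs to 1.06 at 24 h, and that of the 78 lower genes that returned ends at -0.08. Dashed green lines in the middle panels are RAD18, CCR2 and CCL4, which crossed the control level and are not counted in n.

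Only 5 genes on the 8 h array stood at least 1.5-fold above all other 3 arrays: HMOX1, GCLM, SLC7A11, RAD18 and HMGCS1. On the lower side 28 genes stood at least 1.5-fold below all others, among them GIMAP8, MARCKS, PLAC8, SMIM14, CCR2, CCL4 and LOC100996740. The control array had 24 such genes above and 42 below, the 16 h array 0 and 33, and the 24 h array 5 and 3.

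Apart from HMOX1, ASF1A, HIRA and PIR, the higher genes that returned included PALLD, an actin-binding protein with 1552 at 8 h and 887.4 in control cells, and PFKFB3, a driver of glycolysis with 314.2 and 199.7. CCNF, a cyclin that is itself the receptor of a cullin-1 ligase, had 834.7 at 8 h and 554.3 in control cells (0.59, and 0.39 with the median over its probe sets) and was back at 594.7 by 24 h. ZFAND2A, an arsenite-inducible partner of the proteasome, had 925.0 at 8 h and 612.5 in control cells, and read 635.8 and 611.2 later.

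The lower genes that returned covered several functions. DEPTOR, an inhibitor of mTOR that myeloma cells hold at high levels, read 4532 in control cells and 2561, 3966 and 3842 after 8, 16 and 24 h, 1.77-fold lower at 8 h. The protein is itself a substrate of a cullin-1 ligase. PLAC8, a small lysosomal protein of leukocytes, had 258.3 at 8 h and 477.4 in control cells, and 545.3 and 492.6 later. TRAF3IP3, of lymphocyte signalling (-0.91, and -0.45 without probe sets that can bind several transcripts), CBX7, a Polycomb protein (-0.87), PHLDA1, a growth factor response gene (-0.73), RASGRP3, an exchange factor for RAS (-0.72), the mRNA decay factor ZFP36L1 (-0.72), SOX2 (-0.68) and SGK1, a kinase (-0.62), returned as well. The death ligand gene TNFSF10 had 100.3 at 8 h and 152.8 in control cells (-0.61, and -0.28 with the median over its probe sets), and the gene of its receptor TNFRSF10B lay at -0.52.

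Still lower at both later times were HES1, KLF2, ID3, CCND2, RASSF4, a RAS-binding protein with 1417 at 8 h and 2742 in control cells, and CDCA7. RASSF4 lay at -0.95 at 8 h and its second probe set at -1.19, but the median over all its probe sets was -0.14. CDCA7, a target of MYC and E2F, read 886.9 in control cells and 522.6, 280.4 and 272.9 after 8, 16 and 24 h, and its second probe set fell short of 1.5-fold at 8 h (-0.52). It was the only one of 50 measured replication and G1/S genes past 1.5-fold at 8 h. That list had a median of -0.06 at 8 h, with 17 genes above control, and medians of -0.50 and -0.69 at 16 and 24 h with all 50 below.

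**Figure D4:**
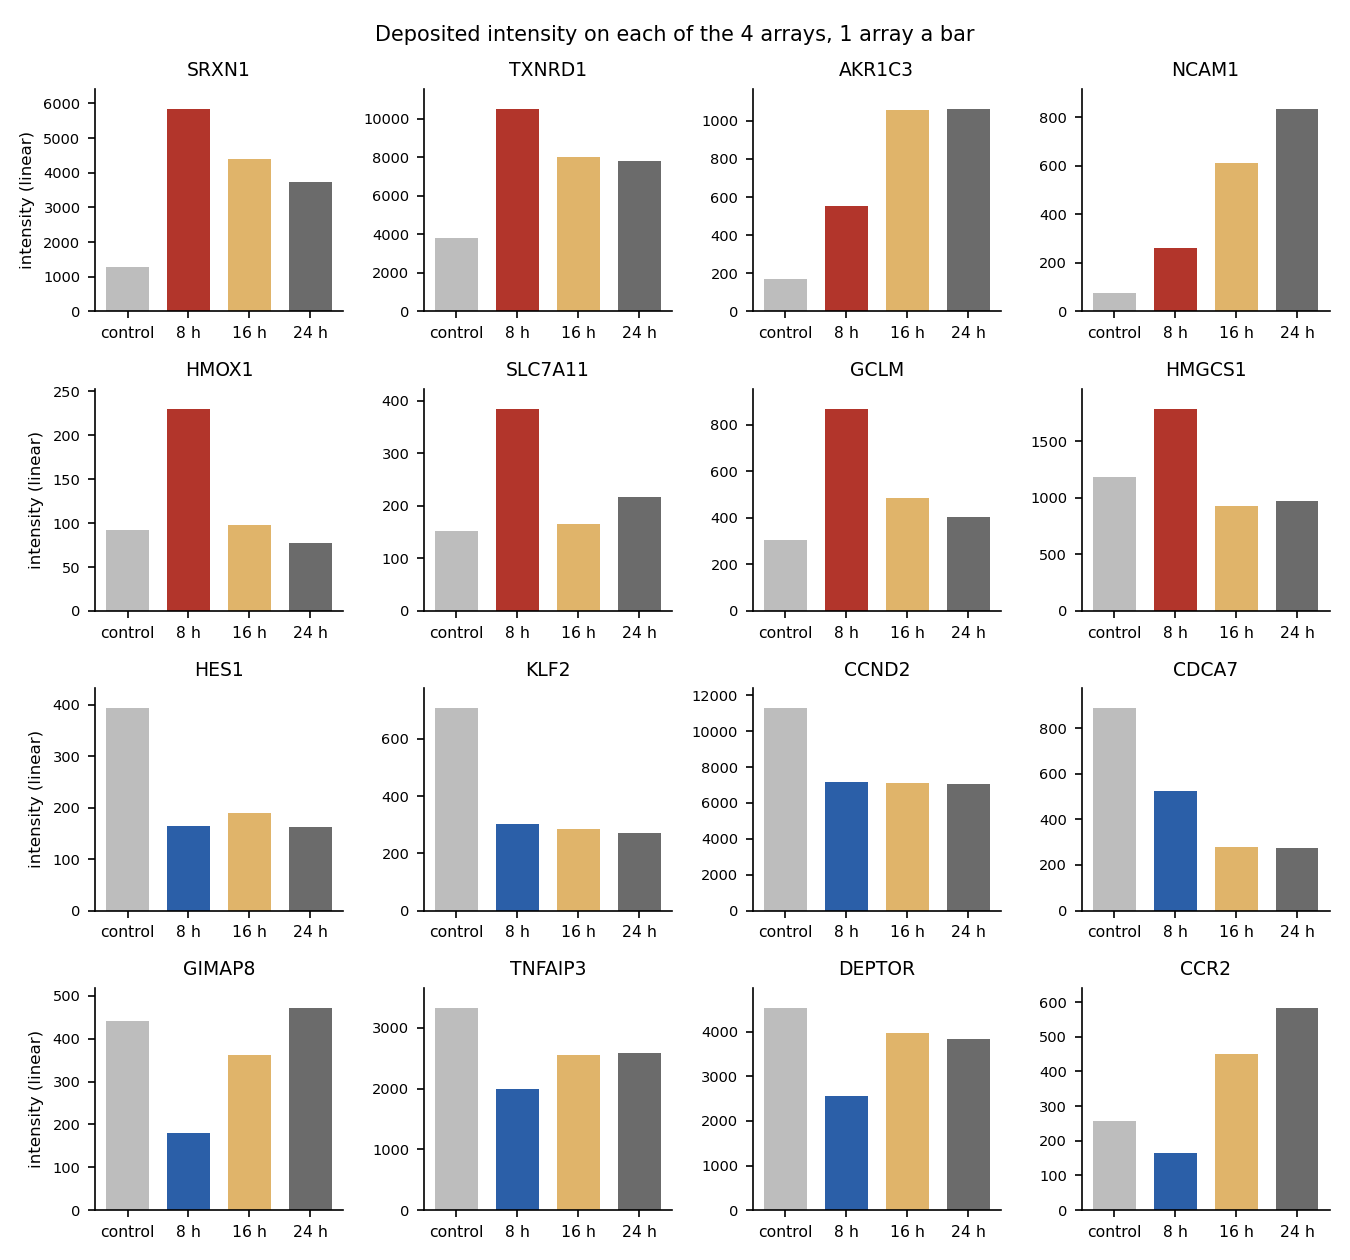
Bars give the deposited linear intensity of 16 genes on the control, 8, 16 and 24 h arrays, 1 array a bar, with each y axis starting at 0. In the first column of rows 1 and 2, SRXN1 stays above control at all times while HMOX1 is high at 8 h only. KLF2 and CCND2 stay near their 8 h level, CDCA7 drops further, and GIMAP8, TNFAIP3 and DEPTOR climb back towards control.

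A trio of genes crossed the control level. CCR2, a chemokine receptor, read 258.3 in control cells and 163.4, 451.3 and 582.6 after 8, 16 and 24 h. CCL4, a chemokine, read 451.6 in control cells and 285.8, 604.8 and 857.8. RAD18, a ubiquitin ligase of DNA damage tolerance, read 120.2 in control cells and 203.4, 72.8 and 103.8, and a second probe set gave -0.23 at 8 h, so its direction rests on 1 dim probe set. CCR2 at 8 h lay at -0.66, and at -0.33 with the median over its probe sets.

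In 3 gene lists most members lay slightly above control at 8 h and below it later, a course that other lists shared in part. Of 22 measured heat shock genes 21 were above control at 8 h, and 16 of these were below it at 24 h. The medians were 0.19, -0.11 and -0.23 at 8, 16 and 24 h. HSPH1, an HSP110 chaperone, had 3998 at 8 h and 2992 in control cells (0.42, and 0.13 without probe sets that can bind several transcripts), HSP90AA1 had 15491 and 11650 (0.41), and DNAJB4, an HSP40 gene, was the only member past 1.5-fold (0.77). DNAJB1, another HSP40 gene, lay at 0.25 at 8 h and at -0.83 and -0.73 later.

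Of 22 measured genes of cholesterol synthesis 16 were above control at 8 h, and 14 of these were below it at 24 h, with medians of 0.15, -0.28 and -0.32. HMGCS1, which makes the precursor of mevalonate, read 1186 in control cells and 1788, 929.0 and 974.2 after 8, 16 and 24 h. Its 8 h difference was 0.59, and 0.40 with the median over its probe sets. SQLE, the squalene epoxidase (0.44), and INSIG1, the sterol sensor that restrains the pathway (0.47), followed the same course. IDI1 lay at 0.37, but at 0.12 with the median over its probe sets and at -0.07 without those that can bind several transcripts, and the gene of the regulator SREBF2 lay at 0.06.

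Of 44 measured mitotic genes 38 were above control at 8 h and 28 of these below it at 24 h, with medians of 0.11, -0.13 and -0.14. KIF20A, a kinesin of cytokinesis, had 2016 at 8 h and 1399 in control cells (0.53), and CCNB1, cyclin B1, had 2523 and 2021 (0.32). No mitotic gene passed 1.5-fold at 8 h. Over all measured genes 2213 of 12446 were above control at 8 h and below it at 24 h. In other lists the same held for 13 of 27 genes of MYC and nucleolar ribosome biogenesis (medians 0.04, -0.13 and -0.20). It also held for 8 of 17 aminoacyl-tRNA synthetases (medians 0.02, -0.19 and -0.21), 12 of 27 proteasome genes and 14 of 30 ATF4 genes.

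The genes of the inhibited pathway itself hardly differed. Of 29 measured neddylation genes none passed 1.5-fold, 14 lay above control and the median was -0.02. NEDD8 had 2052 at 8 h and 2082 in control cells, NAE1 had 3287 and 2782 (0.24), and UBA3 had 1953 and 2233 (-0.19). The cullin genes ranged from CUL1 at -0.10 to CUL5 at 0.17, with CUL3, the scaffold of the KEAP1 ligase, at 0.07. With the median over probe sets CUL3 lay at -0.17 and CUL5 at -0.05. Among 34 measured genes whose proteins are substrates of these ligases, 4 passed 1.5-fold, EPAS1 and CCNF higher and DEPTOR and CCND2 lower, and the median was -0.04. Over all measured genes 0.731% were 1.5-fold higher and 1.12% lower. CCNF was just inside the limit (0.59), and its second probe set gave 0.19. MYC (0.04), CDT1, the licensing factor (-0.10), and ATF4 (-0.03) lay at the control level. These values are RNA levels and say nothing of the proteins.

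Other lists stayed near 0 at 8 h. No measured gene of the p53 target list (22 genes, median 0.01), the ATF4 list or the interferon list (15 genes, median -0.04) passed 1.5-fold, nor did any of 27 proteasome genes. The p53 targets split evenly, with 11 above control and 11 below. TNFRSF10B (-0.52) and CDKN1A (-0.28) were below it. TP53INP1 was above it (0.44, and 0.11 with the median over its probe sets). Small shifts shared by most members were seen in oxidative phosphorylation, where 22 of 28 genes lay above control (median 0.08), in ribosomal proteins, where 20 of 23 lay below (median -0.03), and in splicing factors, where 19 of 26 lay below (median -0.07).

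Several genes with large later differences lay near control at 8 h. Of 39 genes at least 2-fold higher at both 16 and 24 h, 13 were within 0.32 of control on the log2 scale at 8 h and 19 were already 1.5-fold higher. RGS1, a brake on chemokine receptor signalling, read 3043 in control cells and 3116, 7209 and 8172 after 8, 16 and 24 h. AMPD1, an AMP deaminase, read 1435 in control cells and 1319, 3112 and 3780, and NT5E, the ectonucleotidase CD73, read 131.4 and then 152.2, 327.1 and 375.8. On the lower side 12 genes were past 2-fold at both times, 4 of them within 0.32 of control at 8 h. Among these, CDC6, which loads replication helicases, read 986.6 in control cells and 822.5, 436.9 and 465.5, and CENPK, of the kinetochore, read 1004 in control cells and 821.6, 426.4 and 438.1.

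Long noncoding RNA genes made up 20 of the 140 early lower genes (14.3%), 6 of the 91 early higher genes (6.6%) and 5.8% of all measured genes. Among the 78 lower genes that returned they were 17 (21.8%), and among the 24 still lower genes there was none. LOC100996740 read 275.1 in control cells and 123.1, 259.9 and 344.4 after 8, 16 and 24 h, and LINC01003 read 232.8 in control cells and 139.9, 213.1 and 232.1. GLIDR (-0.98), LINC00528 (-0.81), GMDS-DT (-0.75) and ZEB1-AS1 (-0.71) were others. The geometric mean of the intensities of the early lower genes had a median of 329.4, against 384.6 over all measured genes, and 15 of the 140 lay under the array median at 8 h. Their median genomic span was 38.2 kb against 28.1 kb. The early higher genes had a geometric mean intensity of 246.0 (median), and 21 of the 91 lay under the array median in control cells.

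A second probe set is the only repeat reading these arrays offer, and it shares the RNA sample with the first. Of the 91 higher genes 36 had one, which pointed the same way in 30 and passed 1.5-fold in 18. Of the 140 lower genes 55 had one, with the same direction in 49 and 1.5-fold in 18. For genes past 2-fold it agreed in direction in all 6 higher and all 6 lower genes that had one, past 1.5-fold in 6 and 4. It pointed the other way for ITGB8, an integrin subunit (-0.93 and 0.17), and RAD18, and for NR1D2, AP2B1, CIITA, RFLNB, PHF7, MTSS1, GDPD1, TPCN1, RFXAP and LINC00598. With the median over all probe sets of a gene, dim ones included, 12 of the 15 higher genes past 2-fold that could still be read stayed past 2-fold and 14 past 1.5-fold. On the lower side 7 of 14 stayed past 2-fold and 11 past 1.5-fold. Of all early genes, 57 of 78 higher and 71 of 121 lower ones stayed past 1.5-fold, and 76 and 119 kept their direction.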

How the data were processed

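Per the labels' protocols, MM.1S total RNA was isolated with Trizol and biotinylated cRNA was put on Affymetrix arrays. The authors deposited 1 intensity value a probe set on a linear scale. How probe sets were summarised, background-corrected and normalized is not given in the sources used here. No normalization was added because array medians differed by at most 0.048 (log2). The 16 spike-in control probe sets had a median log2 difference from control of -0.007 at 8 h, -0.217 at 16 h and -0.043 at 24 h. What the lower spike-in level on the 16 h array means for the later comparisons was not tested. Groups came from the labels, with 1 array each.

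Of 54675 probe sets, 41097 had 1 gene in the array annotation, and 41043 of these matched RefSeq (GRCh38.p14). Values below the 25th percentile (48.4) were raised to it before log2. The highest-mean probe set stood for a gene, which was measured if its mean exceeded the median probe set mean (93.9), leaving 12446 of 19775 genes. No test was run. Calls are 1.5-fold and 2-fold.

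The members and the 36 gene lists (5 of them cell type markers) were chosen with earlier results of these data known. Of 899 listed genes, 811 had a probe set of their own and 724 were measured. Named genes were all those past 2-fold, the next 10 in each direction, the 10 largest in each later course and direction, all that crossed, up to 4 a list, the NRF2 regulators, the NEDD8 enzymes and cullins, and the 6 largest later genes in each direction that were within 0.32 (log2) of control at 8 h. Members of lists described in full are named beyond this rule. So are noncoding genes, IKBKE, the genes with discordant probe sets and other early genes, chosen after their values were seen. These other early genes include ELL2, BHLHA15, TCF4, PHLDA1, RASGRP3, SOX2, ZFAND2A, FZD7 and CXCR3. Alternatives changed the floor, filter, probe set choice, normalization and limits. The procedure was tested on simulated data. Python 3.11.15, numpy 2.4.6, pandas 2.3.3 and matplotlib 3.10.9 were used.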

Additional observations from a re-analysis of the deposited data

Results flagged for a closer look

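In 3 genes the single 8 h array lay at least 1.5-fold on one side of control and a later array at least 1.5-fold on the other. The difference between the times was not tested, since each time had 1 array. CCR2 had a log2 difference of -0.66 at 8 h and of 1.17 at 24 h. CCL4 had -0.66 at 8 h and 0.93 at 24 h. RAD18 had 0.76 at 8 h and -0.72 at 16 h, and its second measured probe set gave -0.23 at 8 h and -0.56 at 16 h.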

How the results depend on the processing

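With no filter on level, 152 genes were at least 1.5-fold higher at 8 h and 65 of the higher genes no longer differed later. The histone median was then 0.0 and that of immediate early genes -0.0064. With only probe sets above the 75th percentile, 10 genes were 2-fold higher and 9 lower, and 44 were 1.5-fold higher and 80 lower. Of these, 10 higher and 46 lower genes no longer differed and 25 and 13 were still different, and the NF-kB median was -0.31. With the median over all probe sets of a gene, 9 genes were 2-fold lower, 84 were 1.5-fold lower, 27 were still higher, the myeloid marker median was -0.17, and RAD18 turned to -0.16. Of the values of named genes over all settings, 62 moved by at least the SD between probe sets and 1199 did not. All 62 moved with the median over probe sets or without probe sets that can bind several transcripts. The filters leave the value of a gene as it is and centring shifts all genes alike. The 1199 therefore do not measure how far single-gene values hold under another choice of probe set. For HK2, IDI1, JAG1, CFLAR, NFKBIA, RASSF4, HIRA and some others the changed value is given beside the gene. Among those not given there, the median over probe sets was -0.67 for GLIDR, -0.15 for RGS1, 1.12 for AKR1C2, -0.89 for PHACTR1 and 0.60 for DNAJB4. With 0.3 as the limit for no longer different, 8 higher and 31 lower genes met it. With early set at 2-fold, 2 higher and 4 lower genes no longer differed and 12 and 7 were still different. Fewer or more genes tested is part of each filter, and other causes were not tested. Of 231 early genes, 229 were shared without the floor, 206 after quantile normalization and 213 after centring arrays on their medians, where 48.5% of early genes were higher against 39.4%. Other list medians moved by less than the SD between probe sets. That SD, 0.16, is larger than most of the list medians themselves. A small median could change sign within it, so no conclusion on the small shifts is drawn from this. Leaving out a replicate was not possible with 1 array a group. No paired analysis was possible because each group has 1 array. Signal limits the dim genes: 21 of the 91 early higher genes were under the array median in control cells. No replicate bounds any difference, and the spread between cultures is unknown.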

Other observations

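Other groups differed at 8 h by small amounts, given here as values only. Immediate early genes had a median of -0.17 over 22 measured genes, with 4 of 5 KLF genes below control. KLF10 had 348.6 at 8 h and 518.2 in control cells (-0.57), and SPRY1, a brake on growth factor signalling, had 88.9 and 123.7 (-0.48) and lay at 0.23 and 0.32 at 16 and 24 h. Interferon genes split, with BST2, which tethers virus particles, at 0.52 and ISG15, a ubiquitin-like protein, at -0.49. Among HIF targets, MXI1, an antagonist of MYC, had 2361 at 8 h and 1601 in control cells (0.56), and HK2, a hexokinase, had 762.7 and 1019 (-0.42) but lay at 0.14 with the median over its probe sets. TFRC, the transferrin receptor, had 11707 at 8 h and 8317 in control cells (0.49). GABARAPL1, of autophagosome formation, had 145.9 at 8 h and 90.1 in control cells (0.69), a dim gene. GADD45B, a stress-response gene, had 962.5 at 8 h and 1409 in control cells (-0.55, and -0.22 without probe sets that can bind several transcripts).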
